A study of Mus musculus with 2 samples.

Results

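The genes described here are 37 mouse genes of DNA damage signalling and repair, taken by symbol from the 32285 gene rows of 2 single-cell count matrices. They fall into checkpoint kinases with their partners (7 genes), the MRN complex (3), homologous recombination (14), the Fanconi pathway (7), mismatch repair (1) and end joining (5). The cells were labelled as mouse hematopoietic stem cells from blood, grown in suspension for 48 h with RO-3066 or with the solvent DMSO (dimethyl sulfoxide). Each treatment had 1 library of droplet-based RNA sequencing from transcript 3' ends, so differences between treatments carry no replicate check and were given no test. Neither the dose nor the target of RO-3066 is stated in the labels used here, nor are strain, age and sex of the animals. The series is titled for DNA damage and megakaryocytes, from which platelets are shed, and the comparisons below set RO-3066 against DMSO cells, and cells rich in the platelet transcript Pf4 against all other cells.

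Cells answer a broken or unreplicated chromosome through kinases of the ATM and ATR type, which halt the cell cycle and switch on repair. A double-strand break can be copied back from the sister chromatid by homologous recombination, which works in S and G2 phase, or its ends can be rejoined directly by end joining, which works throughout the cycle. The Fanconi pathway clears crosslinks between DNA strands, and its loss in people leads to failure of blood formation. Many genes of homologous recombination are transcribed mainly in S and G2 phase.

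After filtering, 3680 RO-3066 cells with a median of 34752 UMIs and 5832 DMSO cells with a median of 24000 UMIs were kept (a UMI, or unique molecular identifier, counts 1 captured transcript). The libraries shared 7 cell barcodes. A cell was called Pf4-high when at least 1% of its UMIs came from Pf4, which encodes platelet factor 4. There were 256 such cells in RO-3066 (6.96% of kept cells) and 451 in DMSO (7.73%). They were richer in RNA than other cells, with a median of 89888 against 33042 UMIs in RO-3066 and 59722 against 23356 UMIs in DMSO. Apart from Pf4, the other 19 genes of a megakaryocyte marker list summed to 4131 CPM in Pf4-high and 1527 CPM in other RO-3066 cells, and to 3017 and 903 CPM in DMSO (CPM, counts summed over the cells of a group and scaled to the same total in every group). All 14 genes of a stem cell marker list were above the floor of 3 counts in both libraries. In RO-3066 19 of 20 megakaryocyte and 10 of 13 erythroid genes passed this low floor too, so it is no check of the label. The stem cell genes summed to 645 CPM in Pf4-high and 806 CPM in other RO-3066 cells, and to 499.95 and 651 CPM in DMSO.

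Markers of other blood lineages also differed between the Pf4-high and the other cells, and their part in the results below was not tested. The erythroid list of 13 genes summed to 393 CPM in Pf4-high and 1006 CPM in other RO-3066 cells, and to 210.4 and 652 CPM in DMSO, most of it from Hbb-bt and Car2. The neutrophil and monocyte list of 13 genes summed to 141 and 160.2 CPM in RO-3066 and to 91.4 and 172 CPM in DMSO. In the Pf4-high cells 3 of its genes reached 5 CPM in each library, and 7 in RO-3066 and 6 in DMSO were above the floor. Mpo, also of this list, had no UMI in the Pf4-high cells of either library. The lymphoid list of 11 genes summed to 102 and 85.2 CPM in RO-3066 and to 38.2 and 53.97 CPM in DMSO, all but a little of it from Nkg7 and Cd79b, with the T cell gene Cd3e at 0 in all 4 groups of cells. The mast cell and basophil list stayed at or under 9.85 CPM, the dendritic cell list at or under 6.76 CPM and the endothelial and stromal list at or under 55.8 CPM in each of the 4 groups. Just under the Pf4 limit, at 0.9 to 1% of UMIs, lay 45 RO-3066 and 70 DMSO cells, in which the 37 genes summed to 1154 and 1016 CPM. Just over it, at 1 to 1.1%, lay 36 and 45 cells with 1046 and 1027 CPM.

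Taken over all kept cells, the repair genes differed little between treatments. Together they held 1149.9 CPM in RO-3066 and 1080.4 CPM in DMSO, or 50.9 UMIs per cell against 32.3, where RO-3066 cells also held more UMIs in all. Of the 37 genes, 34 reached 5 CPM in either library; Rad51c, Xrcc3 and Lig4 did not. A single gene, Rad54l, was at least 1.5-fold higher in RO-3066 and none was at least 1.5-fold lower, that is 2.94% and 0% of the measured genes, while over all 9340 genes of at least 5 CPM in either library 5.25% were higher and 2.11% lower. The median log2 ratio was 0.059 over the repair genes and -0.002 over all genes measured; 23 repair genes had a ratio above 0 and 11 below. Cells called S phase made up 26.4% of RO-3066 and 41.7% of DMSO cells, while the marker list of 34 S phase genes summed to 3486 and 3435 CPM and that of 54 G2 and M phase genes to 8331 and 10105 CPM. The share called G2M was thus higher in RO-3066 and the summed level of G2 and M genes lower, and no order of cycling is read from the calls. The part of phase in the ratios was not tested, and values within each call are given below. These ratios are of CPM plus 1, RO-3066 over DMSO, and calls of 1.5-fold are on that scale. Folds in the text are plain ratios of CPM, each with an exact 95% interval of the ratio of both counts that covers counting error only. The intervals leave out variation between cells and between libraries, so one that excludes 1 is no test of treatment.

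**Figure D1:**
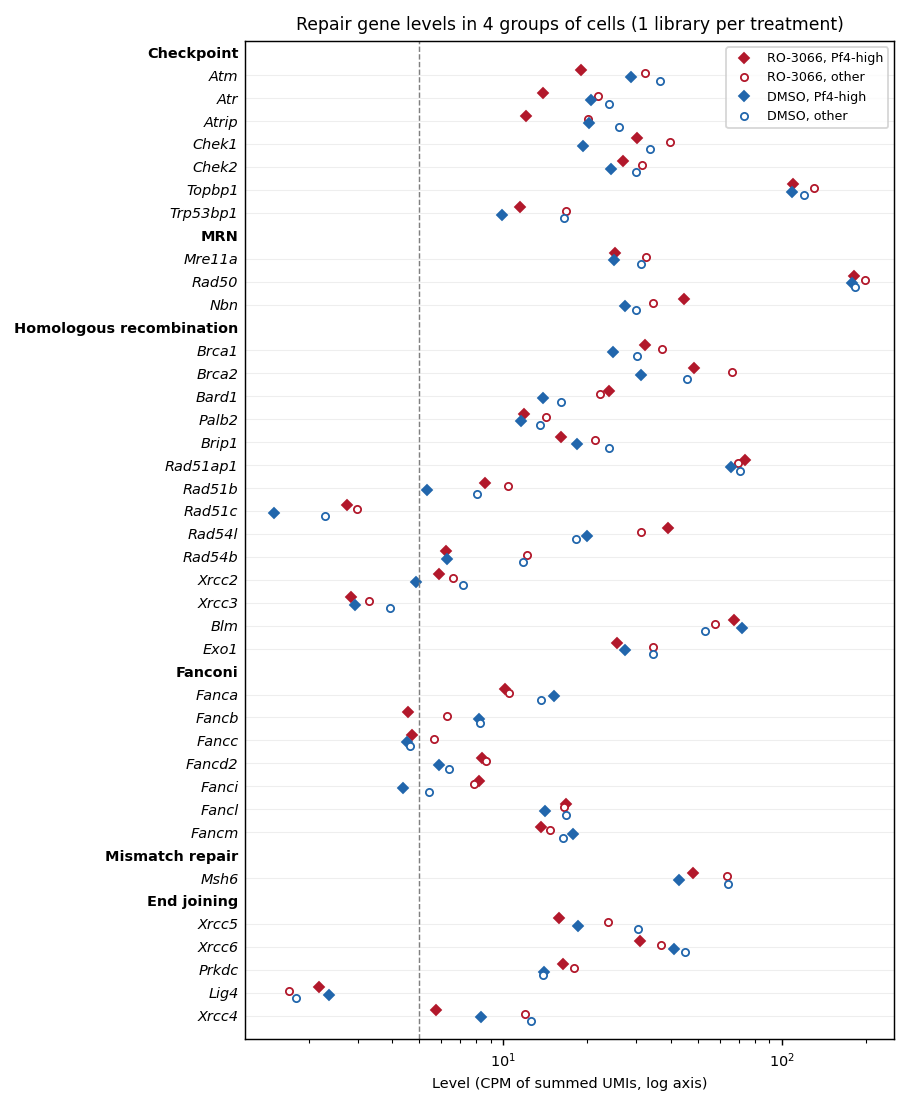
Level of each of the 37 repair genes in CPM of summed UMIs (log axis) in 4 groups of cells: Pf4-high (filled diamonds) and other cells (open circles) of the RO-3066 library (red) and of the DMSO library (blue), with the genes grouped by pathway and 5 CPM marked by the dashed line. In all cells together levels ran between 1.77 CPM for Lig4 and 196 CPM for Rad50 in RO-3066, and Atm, Atr and Atrip have their lowest points in the Pf4-high cells of RO-3066.

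Among the checkpoint genes the ATR arm was split over all kept cells, with the kinase that ATR activates higher in RO-3066 and ATR and its partner lower. Chek1 (chromosome 9, 36708482 to 36727065, minus strand, mm10), the kinase that acts below ATR to block entry into mitosis, was at 38.1 CPM in RO-3066 and 30.7 CPM in DMSO, 1.24-fold (1.20 to 1.29). Atr, the kinase that senses stalled replication, stood at 20.6 CPM in RO-3066 and 23.3 CPM in DMSO, 0.886-fold (0.846 to 0.927). Atrip, which carries ATR to single-stranded DNA, was at 18.9 against 24.9 CPM, 0.758-fold (0.724 to 0.794), the lowest ratio of the 7. Each of these intervals excluded 1, and each gap was below 1.5-fold. In cells called S the log2 ratio was -0.027 for Chek1, -0.040 for Atr and -0.47 for Atrip. In cells called G2M it was 0.65, -0.24 and -0.32 in that order. Chek1 was thus higher in RO-3066 in cells called G2M and not in cells called S. Atrip lies on the same strand as Trex1, whose annotated locus overlaps it, and this overlap could affect the Atrip count. Atm (chromosome 9, 53439149 to 53536740, minus strand), the kinase activated by double-strand breaks, had 30.2 CPM in RO-3066 and 34.9 CPM in DMSO, 0.865-fold (0.833 to 0.898), while its target kinase gene Chek2 had 30.8 and 28.9 CPM, 1.07-fold (1.03 to 1.11). The ATR activator gene Topbp1 was at 127 and 118 CPM and Trp53bp1, whose product marks broken ends and favours end joining, at 15.96 and 15.2 CPM. The 7 checkpoint genes summed to 282 CPM in RO-3066 and 276 CPM in DMSO.

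The MRN complex, which holds broken ends and activates ATM, had all 3 genes slightly above 0. Nbn (chromosome 4, 15957925 to 15992589, plus strand), its regulatory subunit, was at 36.00 CPM in RO-3066 and 29.4 CPM in DMSO, 1.22-fold (1.18 to 1.27). Rad50, the subunit that bridges the ends, was at 196 and 182 CPM, 1.08-fold (1.06 to 1.10), and the nuclease gene Mre11a at 31.3 and 30.04 CPM, 1.04-fold (1.001 to 1.08). The interval for Mre11a begins at 1.001, so its gap is at the edge of the counting error.

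Homologous recombination had the largest ratio of summed levels among the 6 groups, at 385 CPM in RO-3066 against 332 CPM in DMSO. Of its 12 measured genes 10 were above 0. Their median log2 ratio was 0.063, against 0.059 over all repair genes measured, 0.066 for checkpoint genes and 0.109 for MRN genes. The 14 further genes of this pathway, described at the end, summed to 294 CPM in RO-3066 and 292 CPM in DMSO. The sequences before the starts of Rad54l and Brca2 are shown because they had the widest gaps of the pathway. Each is 250 bases of the mouse reference (RefSeq, GRCm38.p6) ending just before the annotated transcript start, written 5' to 3' along the gene, and capitals mark a match to the E2F motif.
Rad54l, chr4:116123691-116123940, minus strand: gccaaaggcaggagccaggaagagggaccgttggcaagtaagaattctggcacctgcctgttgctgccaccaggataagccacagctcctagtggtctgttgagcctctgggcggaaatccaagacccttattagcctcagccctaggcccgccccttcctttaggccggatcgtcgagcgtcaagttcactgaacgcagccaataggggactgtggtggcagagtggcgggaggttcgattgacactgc
Brca2, chr5:150522371-150522620, plus strand: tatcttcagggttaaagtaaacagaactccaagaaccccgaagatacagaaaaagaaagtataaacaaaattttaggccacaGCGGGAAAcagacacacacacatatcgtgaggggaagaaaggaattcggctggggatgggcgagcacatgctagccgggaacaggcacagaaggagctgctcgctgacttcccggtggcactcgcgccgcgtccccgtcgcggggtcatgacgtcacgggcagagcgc
E2F factors switch on genes for S phase, and the motif was searched as TTTCCCGC, TTTGGCGC, TTTCGCGC or TTTGCCGC on both strands, in windows reaching from 250 bases before to 50 after each start. Brca2 held 1 match, which begins 168 bases before the start, and Rad54l held none. Promoters were on hand for 30 of the 37 genes, and 7 of them had a match in at least 1 window (Bard1, Brca2, Chek2, Msh6, Rad51c, Topbp1 and Xrcc6), against 2.60% of the 27025 genes with a window and 2.26% of the 32851 windows, which were not matched on base composition. Of the other 2 motifs searched on both strands, CCAAT, bound by the factor NF-Y, was in 19 of the 30 (Rad54l among them) and in 41.1% of all genes, and TTTGAA, the core of the cell cycle homology region, was in 2 of the 30 (Bard1 and Rad51b) and in 20.2%. The letters of no motif contain those of another. A match describes letters and not a bound site.

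Rad54l (chromosome 4, 116094264 to 116123690, minus strand), which encodes a motor protein that acts in strand exchange with the sister DNA, was at 32.4 CPM in RO-3066 and 18.5 CPM in DMSO. It was 1.75-fold (1.67 to 1.82) and had the largest absolute log2 ratio of the 37. In cells thinned to 10000 UMIs each, 23.5% of RO-3066 cells (22.1 to 24.9) and 16.3% of DMSO cells (15.3 to 17.3) held a Rad54l UMI; at full depth the shares were 59.4% and 36.2%. No cell type that lacks these genes was available to measure the share that free RNA gives. Its log2 ratio of 0.77 was 0.47 among cells of 15000 to 40000 UMIs and 0.50 among cells called S phase, both short of 1.5-fold.

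Brca2 (chromosome 5, 150522630 to 150570329, plus strand), a central mediator of recombination, followed with 63.3 CPM in RO-3066 and 42.9 CPM in DMSO, 1.48-fold (1.43 to 1.52). Bard1, the partner of BRCA1, was at 22.5 and 15.7 CPM, 1.43-fold (1.36 to 1.51), and Brca1 itself at 36.3 and 29.2 CPM, 1.24-fold (1.20 to 1.29). The bridging gene Palb2, which joins BRCA1 to BRCA2, stood at 13.8 and 13.2 CPM, 1.05-fold (0.990 to 1.11). Within this chain of recruitment, the intervals of Brca1, Brca2 and Bard1 lay above 1 and that of Palb2 reached below 1. Rad51b had 10.1 against 7.52 CPM, 1.35-fold (1.25 to 1.45), while Rad51c and Xrcc3 were below 5 CPM, and Xrcc2 had 6.50 against 6.74 CPM. The remaining genes lay close to DMSO: Rad51ap1 at 1.01-fold, the second motor gene Rad54b at 1.05-fold, the helicase gene Blm at 1.04-fold and the nuclease gene Exo1 at 1.002-fold. Brip1, a helicase bound to BRCA1, was lower at 20.6 against 22.95 CPM, 0.897-fold (0.856 to 0.939). Brca2 and Rad54b each overlap another counted gene on the same strand, which could affect their counts.

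Of the Fanconi genes, the pair that is marked with ubiquitin at a crosslink were higher, with Fanci at 7.93 CPM in RO-3066 and 5.22 CPM in DMSO, 1.52-fold (1.40 to 1.66), and Fancd2 at 8.62 and 6.27 CPM, 1.38-fold (1.27 to 1.49). Members of the core complex that sets the mark went both ways. Fancb, a scaffold subunit on the X chromosome, was at 6.02 against 8.25 CPM, 0.730-fold (0.672 to 0.792), and Fanca at 10.4 against 13.97 CPM, 0.745-fold (0.700 to 0.793). Fancc was at 5.48 and 4.62 CPM, 1.19-fold (1.08 to 1.31), and the ubiquitin ligase gene Fancl at 1.02-fold. Fancc overlaps another counted gene on the same strand, which could affect its counts. Fancm, which anchors the complex on DNA, stood at 14.5 and 16.6 CPM, 0.875-fold (0.828 to 0.924). All 7 lie under 20 CPM in both libraries and summed to 69.6 CPM in RO-3066 and 71.2 CPM in DMSO.

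Msh6 (chromosome 17, 87975062 to 87990892, plus strand), a subunit of the sensor of base mismatches, was at 61.1 CPM in RO-3066 and 59.7 CPM in DMSO, 1.02-fold (0.995 to 1.05). End joining had the lowest ratio of summed levels, at 88.9 CPM in RO-3066 and 99.96 CPM in DMSO. The 10 further end joining genes, described at the end, summed to 385.1 CPM in RO-3066 and 385.7 CPM in DMSO. Xrcc5 and Xrcc6 encode the Ku pair that caps broken ends; Xrcc5 had 22.5 against 28.2 CPM, 0.799-fold (0.766 to 0.835), and Xrcc6 35.99 against 44.2 CPM, 0.814-fold (0.786 to 0.842). Prkdc, the kinase that Ku recruits, went the other way with 17.7 against 13.95 CPM, 1.27-fold (1.20 to 1.34). Xrcc4, the scaffold of the ligase, was at 10.97 and 11.7 CPM, and its ligase gene Lig4 at 1.77 and 1.91 CPM.

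Within Pf4-high cells the same genes stood further apart between treatments. Of 33 measured, 7 were at least 1.5-fold higher in RO-3066 (21.2%) and 2 at least 1.5-fold lower (6.06%), where over all genes measured in these cells 10.1% were higher and 7.11% lower. The median log2 ratio was 0.028, against -0.067 over all genes. In other cells 1 of 34 was higher (2.94%) and none lower, where all genes gave 5.11% and 1.95%, with a median of 0.044 against 0.0087. The Pf4-high groups hold 26102750 and 34489740 UMIs against 136915277 and 140096129 in other cells, which makes counting error larger there. Whether the 2 kinds of cell differ in response was not tested. With every cell thinned to 10000 UMIs the counts in Pf4-high cells were 4 higher and 4 lower, where all genes gave 13.4% and 9.94%. In cells called S they were 4 and 8, where all genes gave 12.6% and 10.1%, so neither count holds under each setting.

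Of the 7 genes higher in Pf4-high cells, 4 belong to homologous recombination, which held 12 of the 33 genes measured. Rad54l was at 38.9 CPM in RO-3066 and 19.9 CPM in DMSO Pf4-high cells, 1.95-fold (1.77 to 2.15), and at 31.1 and 18.2 CPM in other cells, 1.71-fold (1.63 to 1.80). It was the single gene called in both. Bard1 had 23.9 and 13.9 CPM in Pf4-high cells, 1.72-fold (1.53 to 1.94), and 22.2 and 16.1 CPM in other cells, 1.38-fold (1.30 to 1.46). Brca2 had 48.5 and 31.3 CPM, 1.55-fold (1.43 to 1.68), and 66.1 and 45.7 CPM, 1.44-fold (1.40 to 1.49). The intervals cover counting error only, and whether these folds differ between Pf4-high and other cells was not tested. Rad51b, at 8.62 and 5.31 CPM in Pf4-high cells, was 1.62-fold (1.33 to 1.99), and 1.29-fold in other cells.

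Nbn, Chek1 and Fanci made up the other 3. Nbn was at 44.7 CPM in RO-3066 and 27.5 CPM in DMSO Pf4-high cells, 1.63-fold (1.49 to 1.78), against 34.3 and 29.9 CPM in other cells, 1.15-fold (1.10 to 1.20). Chek1 was at 30.3 and 19.3 CPM in Pf4-high cells, 1.57-fold (1.42 to 1.75), and at 39.6 and 33.6 CPM in other cells, 1.18-fold (1.14 to 1.23). Fanci was at 8.20 and 4.38 CPM, 1.87-fold (1.51 to 2.32), and at 7.88 and 5.42 CPM, 1.45-fold (1.32 to 1.60). The log2 ratio of Chek1 in Pf4-high cells was 1.18 in cells called G2M (195 in RO-3066 and 313 in DMSO) and -0.23 in cells called S (54 and 132). Among the few Pf4-high cells of 15000 to 40000 UMIs, 15 in RO-3066 and 138 in DMSO, Chek1 was at -0.41 and Fanci at -0.53.

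The 2 genes lower in RO-3066 Pf4-high cells were Atrip and Fancb. Atrip was at 12.1 CPM in RO-3066 and 20.2 CPM in DMSO Pf4-high cells, 0.598-fold (0.522 to 0.684), and at 20.2 and 26.01 CPM in other cells, 0.775-fold (0.737 to 0.814). Fancb had 4.56 and 8.18 CPM, 0.558-fold (0.446 to 0.693), and 6.30 and 8.27 CPM in other cells, 0.762-fold (0.697 to 0.833). Both ATM and ATR kinase genes came just short of the 1.5-fold call in these cells: Atm had 19.00 against 28.8 CPM, 0.661-fold (0.592 to 0.737), and Atr 13.8 against 20.6 CPM, 0.670-fold (0.589 to 0.761). In other cells Atm was at 32.3 against 36.4 CPM, 0.887-fold (0.852 to 0.924), and Atr at 21.9 against 23.9 CPM, 0.916-fold (0.872 to 0.962). Fanca showed 10.2 against 15.2 CPM in Pf4-high cells, 0.667-fold (0.573 to 0.775). The genes nearest to no difference in Pf4-high cells were Topbp1 (1.01-fold), Mre11a (1.01-fold), Rad50 (1.02-fold), Palb2 (1.02-fold) and Rad54b (0.991-fold).

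The other genes described by level in all 4 groups of cells lay within 1.5-fold in both kinds of cell. Brca1 had 32.2 and 24.8 CPM in RO-3066 and DMSO Pf4-high cells and 37.1 and 30.2 CPM in other cells, 1.30-fold (1.18 to 1.43) and 1.23-fold (1.18 to 1.28). Chek2 had 27.01 and 24.4 CPM in RO-3066 and DMSO Pf4-high cells and 31.6 and 29.97 CPM in other cells, 1.11-fold (0.9996 to 1.22) and 1.05-fold (1.01 to 1.10). Trp53bp1 had 11.5 and 9.86 CPM in RO-3066 and DMSO Pf4-high cells and 16.8 and 16.5 CPM in other cells, with both intervals reaching below 1. The remaining MRN genes were close to DMSO in both kinds of cell. Rad50 had 182 and 179 CPM in RO-3066 and DMSO Pf4-high cells and 199 and 182 CPM in other cells, 1.02-fold and 1.09-fold. Mre11a had 25.2 and 24.9 CPM in RO-3066 and DMSO Pf4-high cells and 32.4 and 31.3 CPM in other cells, 1.01-fold and 1.04-fold. In the Fanconi pathway Fancd2 resembled its partner Fanci in direction. Fancd2 had 8.39 and 5.89 CPM in RO-3066 and DMSO Pf4-high cells and 8.67 and 6.37 CPM in other cells, 1.43-fold (1.17 to 1.73) and 1.36-fold (1.25 to 1.49). Fancl had 16.8 and 14.1 CPM in RO-3066 and DMSO Pf4-high cells and 16.6 and 16.8 CPM in other cells, 1.19-fold (1.05 to 1.36) and 0.988-fold (0.932 to 1.05). Fancc had 4.71 and 4.52 CPM in RO-3066 and DMSO Pf4-high cells and 5.63 and 4.64 CPM in other cells, and did not reach 5 CPM in the Pf4-high cells of either library. Of the end joining genes, both Ku genes and Xrcc4 were below DMSO in both kinds of cell and Prkdc above. Xrcc6 had 31.1 and 41.1 CPM in RO-3066 and DMSO Pf4-high cells and 36.9 and 44.99 CPM in other cells, 0.756-fold (0.692 to 0.824) and 0.821-fold (0.791 to 0.852). Xrcc5 had 15.9 and 18.6 CPM in RO-3066 and DMSO Pf4-high cells and 23.8 and 30.5 CPM in other cells, 0.852-fold (0.751 to 0.966) and 0.779-fold (0.744 to 0.816). For each Ku gene the interval lay below 1 in both kinds of cell. Prkdc had 16.4 and 14.03 CPM in RO-3066 and DMSO Pf4-high cells and 17.9 and 13.9 CPM in other cells, 1.17-fold (1.02 to 1.33) and 1.29-fold (1.21 to 1.37). Xrcc4 was 0.691-fold (0.563 to 0.844) in Pf4-high cells and 0.953-fold (0.891 to 1.02) in other cells, where the interval holds 1.

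**Figure D2:**
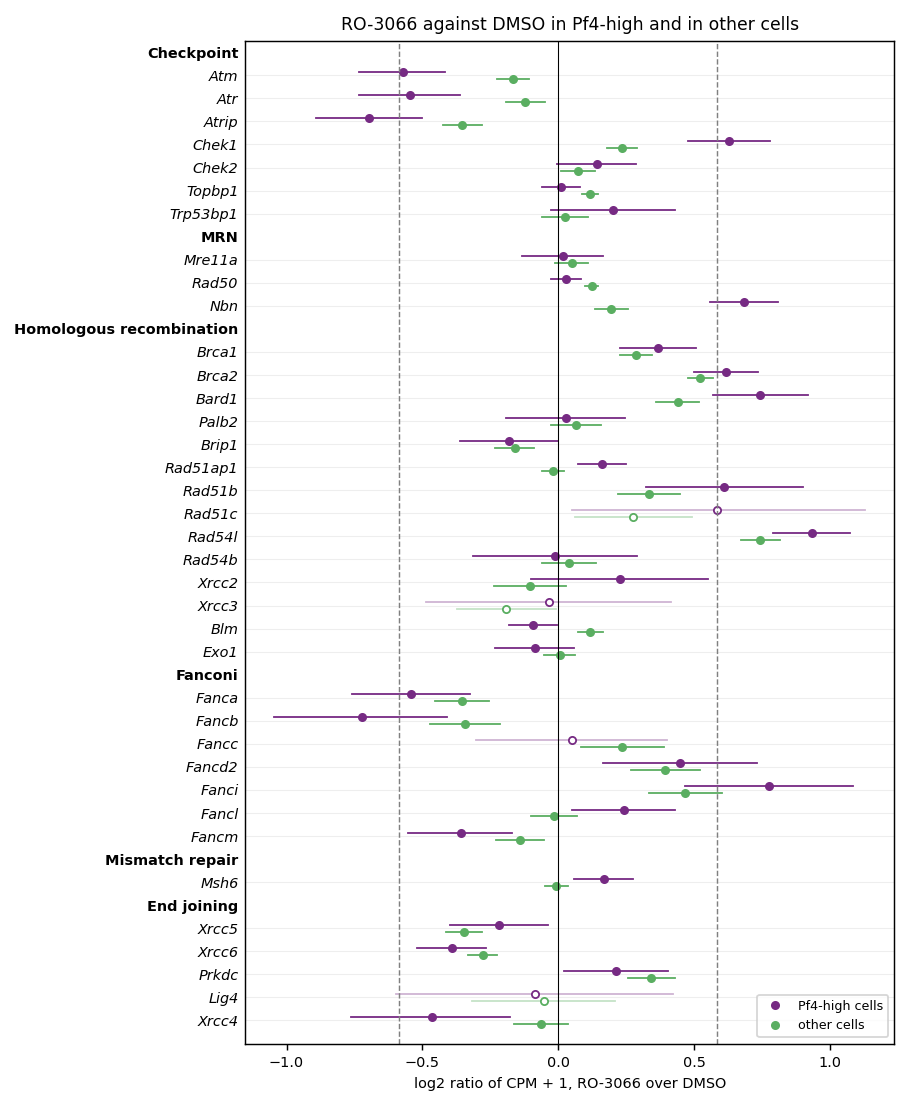
Log2 ratio of CPM plus 1, RO-3066 over DMSO, for each repair gene in Pf4-high cells (purple) and in other cells (green), with bars for the exact 95% counting interval, open points for genes under 5 CPM in both libraries, and dashed lines at 1.5-fold. Among genes of at least 5 CPM, Rad54l lies past the right line in both kinds of cell, Nbn, Bard1, Brca2, Chek1, Rad51b and Fanci in Pf4-high cells, and Atrip and Fancb past the left line in Pf4-high cells.

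Set against other cells of their own library, Pf4-high cells had lower levels of most repair genes. Together the 37 genes held 1026 CPM in Pf4-high and 1174 CPM in other RO-3066 cells, and 966 and 1108 CPM in DMSO. In UMIs per cell the order was the reverse, 105 against 46.9 in RO-3066 and 73.9 against 28.9 in DMSO, as Pf4-high cells held more UMIs in all. In RO-3066 5 of 34 measured genes were at least 1.5-fold lower in Pf4-high cells (14.7%) and none higher, where all genes gave 10.8% lower and 7.89% higher. In DMSO 4 of 33 were lower (12.1%) and none higher, where all genes gave 10.2% and 8.23%. The median log2 ratio of the repair genes was -0.24 in RO-3066 and -0.26 in DMSO, and that of all genes -0.093 and -0.018. Of 33 repair genes measured in both libraries, 23 were below 0 in both, 2 above 0 in both and 8 of opposite sign. The same count was not made over all genes, so this agreement is not read as particular to the repair genes. The count lower was 11 in RO-3066 and 8 in DMSO among cells of 15000 to 40000 UMIs, where all genes gave 24.6% and 12.1%. It was 3 and 2 with a pseudocount of 5 CPM, where all genes gave 6.78% and 7.11%.

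Fewer Pf4-high cells were called S phase, 21.3% against 26.8% of other cells in RO-3066 and 29.5% against 42.8% in DMSO, and more were called G2M. The list of G2 and M genes did not follow the calls in RO-3066, with 7649 CPM in Pf4-high and 8461 CPM in other cells, and stood at 10266 and 10065 CPM in DMSO. The list of S genes summed to 3277 and 3526 CPM in RO-3066 and to 2943 and 3556 CPM in DMSO. The phase calls rest on marker genes of S and of G2 and M phase that include none of the repair genes. The median of the repair genes was -0.36 in cells called S and -0.22 in cells called G2M in RO-3066, and -0.20 and -0.22 in DMSO. The part of cell cycle phase in the lower levels was not tested.

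All 7 checkpoint genes were below 0 in both libraries, as were 23 of the 33 repair genes measured in both, these 7 included. Atm was at 19.00 CPM in Pf4-high and 32.3 CPM in other RO-3066 cells, 0.588-fold (0.535 to 0.645), and at 28.8 and 36.4 CPM in DMSO, 0.789-fold (0.737 to 0.845). Atr was at 13.8 and 21.9 CPM in RO-3066, 0.631-fold (0.564 to 0.704), and at 0.863-fold in DMSO; Atrip was at 12.1 and 20.2 CPM, 0.601-fold (0.533 to 0.675), and at 0.778-fold in DMSO. Chek1, in contrast to these, was further below other cells in DMSO than in RO-3066, with 30.3 and 39.6 CPM in RO-3066, 0.765-fold (0.709 to 0.824), and 19.3 and 33.6 CPM in DMSO, 0.574-fold (0.528 to 0.622). Trp53bp1 was likewise called in DMSO alone, at 9.86 and 16.5 CPM, 0.597-fold (0.531 to 0.669), and stood at 0.684-fold in RO-3066. Chek2 stood at 0.856-fold in RO-3066 and 0.815-fold in DMSO, and Topbp1 at 0.843-fold and 0.908-fold.

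Beyond the checkpoint genes, Rad54b was the single gene at least 1.5-fold lower in the Pf4-high cells of both libraries, at 6.21 against 12.1 CPM in RO-3066, 0.512-fold (0.433 to 0.601), and 6.26 against 11.8 CPM in DMSO, 0.532-fold (0.459 to 0.613). The end joining genes Xrcc4 and Xrcc5 were called in 1 library each. Xrcc4 was at 5.75 against 11.97 CPM in RO-3066, 0.480-fold (0.403 to 0.568), and 8.32 against 12.6 CPM in DMSO, 0.663-fold (0.583 to 0.751). Xrcc5 was at 15.9 against 23.8 CPM in RO-3066, 0.667-fold (0.601 to 0.739), and 18.6 against 30.5 CPM in DMSO, 0.610-fold (0.561 to 0.663). Msh6 was lower in both, at 48.1 against 63.5 CPM, 0.758-fold (0.713 to 0.804), and 42.8 against 63.9 CPM, 0.670-fold (0.633 to 0.708), as was Brca2 at 0.734-fold (0.692 to 0.779) in RO-3066 and 0.685-fold (0.642 to 0.731) in DMSO. A few genes went the other way. Blm, a helicase that undoes crossed DNA strands, was higher in both, at 67.3 against 57.5 CPM in RO-3066, 1.17-fold (1.11 to 1.23), and 71.8 against 52.9 CPM in DMSO, 1.36-fold (1.30 to 1.42). Rad54l was at 1.25-fold (1.17 to 1.34) and 1.10-fold (1.01 to 1.19), so Blm and Rad54l were the measured genes above 0 in both. Nbn was above other cells in RO-3066, at 44.7 against 34.3 CPM, 1.30-fold (1.22 to 1.39), and below them in DMSO, at 27.5 against 29.9 CPM, 0.919-fold (0.855 to 0.986). The Fanconi genes summed to 66.5 against 70.2 CPM in RO-3066 and 70.1 against 71.5 CPM in DMSO, with medians of -0.042 and -0.056.

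**Figure D3:**
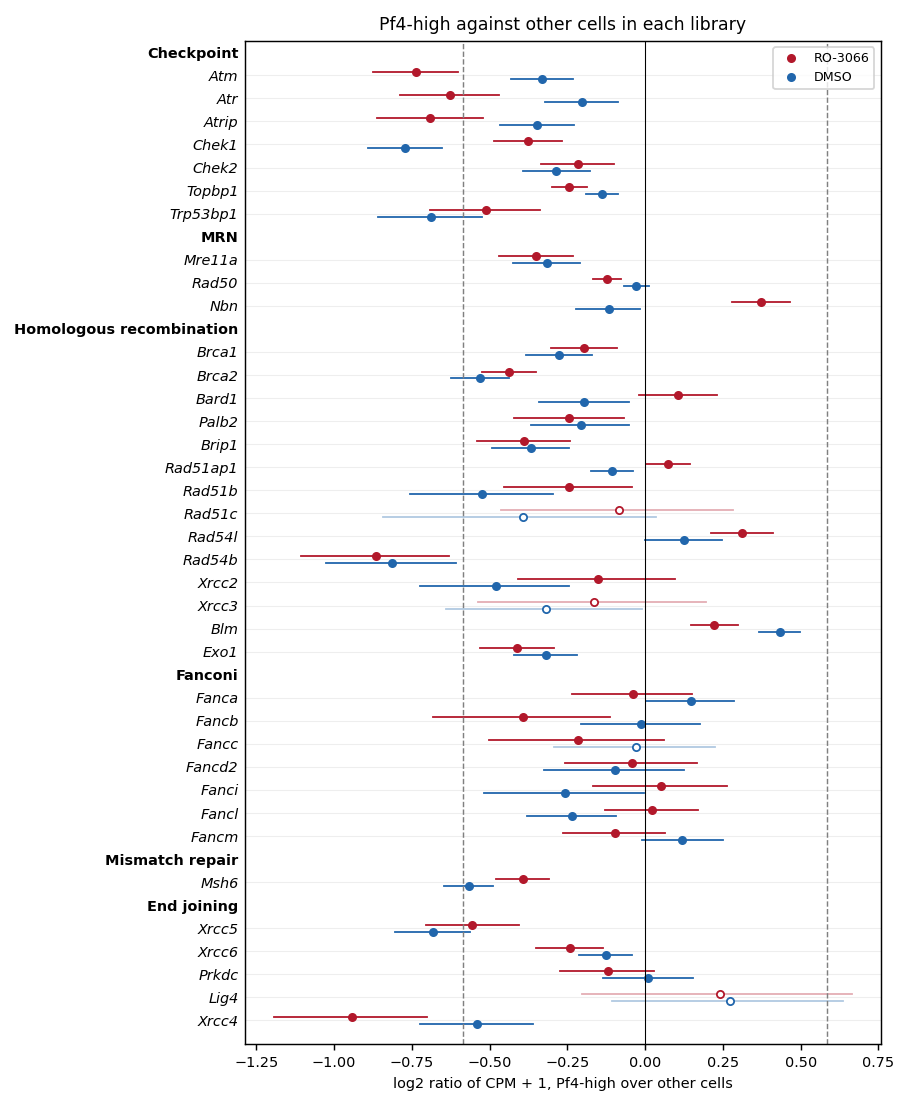
Log2 ratio of CPM plus 1, Pf4-high over other cells, for each repair gene in the RO-3066 library (red) and the DMSO library (blue), with bars for the exact 95% counting interval, open points for genes under 5 CPM in both kinds of cell, and dashed lines at 1.5-fold. All checkpoint genes lie left of 0 in both libraries, and Rad54b lies past the left line in both.

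Since many of these genes follow the cell cycle, their levels were also set side by side for cells called S and cells called G2M, a description added with the values known. Cells called S made up 26.4% of 3556 RO-3066 cells with at least 10000 UMIs and 41.7% of 5749 DMSO cells, and cells called G2M 71.8% and 55.5%. In RO-3066 no measured repair gene was at least 1.5-fold higher or lower in cells called S, where all genes gave 0.321% and 0.857%. In DMSO 5 of 34 were higher (14.7%) and none lower, where all genes gave 2.15% and 2.63%. The median log2 ratio was 0.11 in RO-3066 and 0.19 in DMSO. The phase calls were made on the same cells, and free RNA in the droplets, which the calls also read, was not measured.

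The 5 genes higher in DMSO cells called S were Chek1, Msh6, Brca1, Exo1 and Atm. Chek1 stood at 45.3 against 36.1 CPM in RO-3066 and 46.2 against 22.7 CPM in DMSO, cells called S before cells called G2M, which is 1.26-fold and 2.04-fold. Msh6 stood at 71.9 against 57.6 CPM in RO-3066 and 86.5 against 45.1 CPM in DMSO, 1.25-fold and 1.92-fold. Brca1 stood at 42.3 against 34.6 CPM in RO-3066 and 42.7 against 22.4 CPM in DMSO, 1.22-fold and 1.90-fold. In cells called G2M all 3 were higher in RO-3066 than in DMSO, and in cells called S all 3 were at or below DMSO. Exo1, which trims DNA ends in recombination and mismatch repair, stood at 38.5 against 31.5 CPM in RO-3066 and 46.4 against 26.4 CPM in DMSO, and Atm at 37.7 against 27.6 CPM in RO-3066 and 45.6 against 29.2 CPM in DMSO. Fancd2 and Fanci were the other way round, with Fancd2 at 7.83 against 8.97 CPM in RO-3066 and 4.70 against 7.26 CPM in DMSO and Fanci at 7.03 against 8.30 CPM in RO-3066 and 4.12 against 5.93 CPM in DMSO. Chek2 was also lower in cells called S, at 27.98 against 31.9 CPM in RO-3066 and 23.3 against 32.1 CPM in DMSO.

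The treatment gap within a single phase call can be read from the same levels. Among cells called G2M, 4 repair genes were at least 1.5-fold higher in RO-3066, namely Rad54l (log2 0.94), Chek1 (0.65), Brca2 (0.64) and Brca1 (0.61), where over all genes measured in those cells 6.41% were higher. Among cells called S there were 2, Fanci (0.65) and Fancd2 (0.63), where all genes gave 5.71%, and Chek1 was at -0.027 and Brca1 at -0.013. In cells called G1, 61 in RO-3066 and 158 in DMSO, Brca1 was at 2.004 and 3.70 CPM and Rad54l at 5.34 and 3.29 CPM, while Atm was at 35.4 and 30.4 CPM. The Brca1 levels rest on 3 and 9 UMIs and those of Rad54l on 8 and 8, so their gaps are not read.

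**Figure D4:**
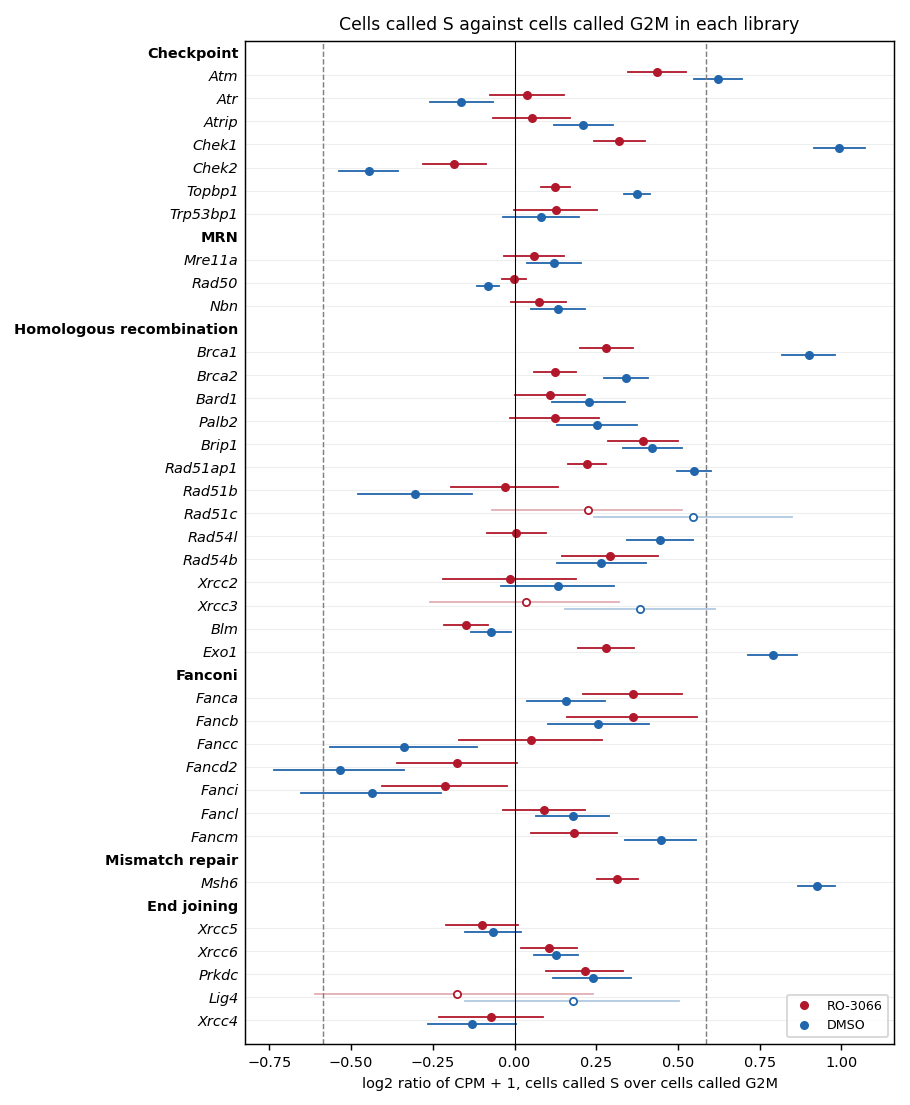
Log2 ratio of CPM plus 1, cells called S over cells called G2M, for each repair gene in the RO-3066 library (red) and the DMSO library (blue), with bars for the exact 95% counting interval, open points for genes under 5 CPM in both, and dashed lines at 1.5-fold. Chek1, Msh6, Brca1, Exo1 and Atm lie past the right line in DMSO, and no measured gene does in RO-3066.

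A further 51 genes of the same pathways were read alongside, of which 49 reached 5 CPM in either library. Over all kept cells none of them was at least 1.5-fold higher or lower in RO-3066, where all genes gave 5.25% and 2.11%, and their median log2 ratio was -0.02. In Pf4-high cells 3 of 47 were higher and 6 lower, with a median of -0.13, where all genes gave 10.1% higher and 7.11% lower. The higher ones were Fancg, a Fanconi core gene, at 5.94 against 2.90 CPM, 2.05-fold (1.58 to 2.66), Mad2l2 at 1.78-fold and the fork protection gene Timeless at 32.6 against 19.05 CPM, 1.71-fold (1.54 to 1.90). The lower ones were H2afx, which encodes the histone variant marked at breaks, at 157 against 282 CPM, 0.557-fold (0.537 to 0.578), Usp1, the enzyme that removes ubiquitin from FANCD2, at 107 against 188 CPM, 0.570-fold (0.545 to 0.596), its partner Wdr48 at 0.616-fold, the nuclease gene Dna2 at 0.572-fold, the ligase gene Lig3 at 0.576-fold and Msh3 at 0.602-fold. In other cells none passed 1.5-fold, where all genes gave 5.11% higher and 1.95% lower. Pf4-high against other cells gave 2 of 48 lower in RO-3066, Wdr48 (0.618-fold) and Msh3 (0.544-fold), where all genes gave 10.8%, and 4 of 47 lower in DMSO, where all genes gave 10.2%, with none higher in either library. In DMSO cells called S against cells called G2M, 9 of 49 were higher and 4 lower, with a median of 0.046, where all genes gave 2.15% and 2.63%. The same comparison in RO-3066 gave none higher and 1 lower, where all genes gave 0.321% and 0.857%.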

How the data were processed

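UMI counts per gene and barcode, with no normalization, were deposited by the authors for each library of the 10x Genomics 3' workflow. Cell Ranger 5.0.1 and mm10 are named in the submitters' processing notes, while the file headers name Cell Ranger 7.1.0; the annotation release and the handling of intron reads are not given in the sources used. Kept barcodes had 1000 UMIs or more, 500 genes or more and up to 10% mitochondrial UMIs (84 RO-3066 and 26 DMSO barcodes left out). Doublets, scored among 50 neighbours and called at 0.8% per 1000 barcodes, removed 118 RO-3066 and 302 DMSO cells. Counts of kept cells, 163018027 UMIs in RO-3066 and 174585869 in DMSO, were summed by group and scaled to CPM, so cells rich in RNA weigh more. Ratios are log2 of CPM plus 1, for genes of at least 5 CPM on either side. With 1 library per treatment there was no test; intervals are exact 95% intervals for counting error alone. Phases were called with scanpy 1.11.5 on cells thinned to 10000 UMIs, leaving out 124 RO-3066 and 83 DMSO cells with fewer. The calculation was tested on simulated counts with counting error alone, drawn at the summed levels of all kept cells. That simulation holds no variation between cells or libraries and cannot show its effect. Levels in all cell groups are given for 10 chosen members and for the 2 per pathway with the largest absolute ratio in each comparison; other members are given by level or ratio. Members and lists were chosen with earlier results of these data known. Gene positions are from GENCODE vM21 (mm10). Python 3.11.15, numpy 2.4.6, scipy 1.17.1, pandas 2.3.3 and scikit-learn 1.9.0 were used. Alternatives were other scalings, weights, depths, filters, minimum levels, pseudocounts, Pf4 limits and phase subsets. Values of single further repair genes in DMSO, Pf4-high against other cells, are not reported here.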

Additional observations from a re-analysis of the deposited data

How the results depend on the processing

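No paired analysis was possible because each treatment has 1 library, and no replicate could be left out. Of 219 values of the 5 comparisons (median log2 ratio of the repair genes, and counts at least 1.5-fold higher or lower) recomputed under the alternatives, 189 stayed within the interval of the median or within 1.5 times the count and 30 did not; the cause of each was not tested. The median of Pf4-high over other cells stayed below 0 under all 15 alternatives in RO-3066 and in DMSO, reaching -0.42 and -0.38 among cells of 15000 to 40000 UMIs. For RO-3066 over DMSO in all kept cells, the count higher, 1, was 2 in cells called S, 4 in cells called G2M and 0 among cells of 15000 to 40000 UMIs, where it was also 0 for other cells. For Pf4-high cells, the counts higher and lower, 7 and 2, were 4 and 4 in thinned cells, 3 and 0 with a pseudocount of 5 CPM, and 4 and 8 in cells called S, with a median there of -0.14. The count lower was 1 at a minimum of 20 CPM, 1 in cells called G2M, 1 with a Pf4 limit of 0.5%, and 8 among cells of 15000 to 40000 UMIs, where the median was -0.14. In that range 15 RO-3066 Pf4-high cells remained. For Pf4-high over other cells the count lower, 5 in RO-3066, was 8 in thinned cells, 3 with the pseudocount, 3 at 20 CPM, 10 in cells called S, 11 in the UMI range (with 1 higher), 9 with a Pf4 limit of 2% and 3 with 0.5%. In DMSO the count, 4, was 2 with the pseudocount, 2 at 20 CPM, 8 in the UMI range and 8 with a limit of 2%. In the UMI range all genes gave 24.6% lower in RO-3066 and 12.1% in DMSO. The share over all genes was computed under some of these settings alone and is given with the comparisons above. Counts under the other settings have no such share beside them and are not read as a result about the repair genes. For all 7 sets of values, S over G2M calls included, 2699 values of single genes stayed within their interval, 490 moved past it and 3 called values changed sign: Chek1 in Pf4-high cells (-0.23 in cells called S, -0.41 in the UMI range) and Fanci (-0.53 in the UMI range). Leaving the megakaryocyte genes out of the totals, chosen after seeing the data, changed no count by over 1.5 times.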
